A study of Mus musculus with 8 samples.

Results

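Mitochondrial ribosomal protein genes encode the protein part of the ribosome that works inside mitochondria. They were taken from the deposited table by symbol, as protein-coding genes whose names begin with Mrpl or Mrps and a number, and 78 of its 25343 genes met that rule. Of these, 49 carry an Mrpl symbol, for the large subunit, and 29 an Mrps symbol, for the small subunit. They lie on 17 chromosomes, and chromosome 11 holds the most, with 11 genes.

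Cochlear hair cells of mice were compared between 4 Ndp KO libraries and 4 WT libraries. Ndp encodes norrin, a secreted ligand of the receptor Fzd4 and an activator of beta-catenin signalling, and its loss in humans causes Norrie disease, with blindness and often progressive deafness. Both genotypes were of a mixed C57BL/6 and 129 background, aged postnatal day 4 to 6, and both carried the Atoh1-GFP marker by which hair cells were sorted. Every library came from a pool of 12 to 20 sensory epithelia, so its values are those of many ears and not of single animals, and no source used here says whether the libraries came from separate litters.

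The mitoribosome translates only the few proteins that mitochondrial DNA encodes, all of them core subunits of the respiratory chain and the ATP synthase. Its ribosomal RNAs come from mitochondrial DNA, but its proteins are encoded in the nucleus, made in the cytosol and imported. The small subunit binds the messenger RNA and reads its codons, while the large subunit joins the amino acids and passes the chain out through a tunnel beside the inner membrane. Many of these proteins have a counterpart in the bacterial ribosome, and others exist only in mitochondria. Recessive variants of MRPS2 and of MRPS7 in humans cause multisystem disease that includes sensorineural hearing loss. Variants of the mitochondrial tRNA synthetases HARS2 and LARS2 cause Perrault syndrome, in which hearing loss is joined by ovarian failure in females.

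The libraries held between 35077950 and 48329827 reads, and 3 reads, the floor below which a gene could not be told from absent, were worth 2.34 to 3.49 normalized counts. Normalized counts are reads divided by the size factor of each library. Ndp averaged 36.2 ± 24.9 normalized counts in Ndp KO and 146 ± 53.2 in WT cells (SD, n = 4 each), a log2 difference of -2.20, and no Ndp KO library reached the lowest WT library (limma, unadjusted p = 0.00261, adjusted p = 0.895). The 10 hair cell markers were measured throughout, and their summed normalized counts were 386546 to 447789 in Ndp KO and 384665 to 435032 in WT libraries. Markers of other cells were present as well: 9 supporting cell markers summed to 222093 to 300695 in Ndp KO and 185908 to 377830 in WT libraries, and 9 macrophage markers to 1211 to 3055 in Ndp KO and 278 to 2301 in WT libraries. At an unadjusted limma p under 0.05 stood 5.57% of all genes tested. Of the macrophage markers 8 of 9 had a positive log2 difference, Ndp KO minus WT, with 3 under 0.05. Of the hair cell markers 6 of 10 had a positive one, with 1 under 0.05. Of the supporting cell markers 8 of 9 had a negative one, with 2 under 0.05. Of those, Hes5, a Notch target, had 3161, 4348, 1998 and 3862 normalized counts in Ndp KO and 6951, 7528, 5014 and 6109 in WT libraries, without overlap (log2 difference -0.98, limma, unadjusted p = 0.00165, adjusted p = 0.895), and Sox2 had a difference of -0.40 (limma, unadjusted p = 0.0497, adjusted p = 0.895). Markers of mesenchyme and fibrocytes summed to 7169 to 16830 in Ndp KO and 5674 to 8959 in WT libraries, with 6 of 7 positive and 3 under 0.05, among them Coch at 1.84 (limma, unadjusted p = 0.00301, adjusted p = 0.895). Of 3 endothelial markers tested 2 were positive, with 1 under 0.05, and of 5 glial and neuronal markers 4, with 1 under 0.05. All 5 markers of proliferating cells were positive, with 0 under 0.05. Hes5, Sox2 and Coch were named after their values were seen, and the part of these cells in the results was not tested. In sorted pools such as these, fewer cells of a type and less RNA per cell cannot be told apart. The WT libraries stood further from one another than the Ndp KO libraries did, above all WT replicates 2 and 4. The medians over gene families are given with and without them.

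Promoter sequence describes the members outside the measured values. RefSeq promoter windows of the build GRCm38.p6 could be matched for 69 of the 78 members, and the 250 bases before the start were searched on both strands for short motifs of factors known to control nuclear genes of mitochondria. The NRF1 motif, GCGCANGCG, was present in 13 of 69 members (18.8%) and in 10.4% of all 12965 matched protein-coding genes, where a gene with several windows counted once. The ETS motif, CCGGAAG, which the nuclear respiratory factor GABP recognises, was present in 18 members (26.1%), against 12.9% of all genes. The YY1 motif, AAGATGGCG, was present in 2 members (2.9%), against 1.1% of all genes. The ETS and YY1 motifs can share the letters AAG where they abut. At least 1 of these 3 motifs was found in 31 of 69 members (44.9%) and in 22.1% of all genes. Among the 11356 matched protein-coding genes that were tested, the shares were 11.7% for NRF1, 14.3% for ETS, 1.23% for YY1 and 24.6% for any. With the first 50 bases after the start included, the counts were 16 members (23.2%, against 12.5% of all genes) for NRF1, 26 (37.7%, against 16.4%) for ETS, 8 (11.6%, against 2.82%) for YY1 and 42 (60.9%, against 27.9%) for any of the 3. Motifs of 2 other kinds were each found before the start of 5 of 69 members (7.25%), so these shares rest on few genes. CACGTG, the E-box, was before the start of 9.09% of all genes and 9.53% of those tested. TATAAA, the TATA box, was before that of 9.46% and 8.26%. The members that held both an NRF1 and an ETS motif in the 250 bases before the start were Mrpl17 and Mrpl22, and these stretches are shown in lower case, 5′ to 3′, with the motifs in capitals. Mrpl17 is the counterpart of bacterial L17, and Mrpl22 lines the exit of the peptide tunnel. The stretch of Mrpl17 lies at chr7:105811088-105811337 on the minus strand and that of Mrpl22 at chr11:58171414-58171663 on the plus strand.
Mrpl17: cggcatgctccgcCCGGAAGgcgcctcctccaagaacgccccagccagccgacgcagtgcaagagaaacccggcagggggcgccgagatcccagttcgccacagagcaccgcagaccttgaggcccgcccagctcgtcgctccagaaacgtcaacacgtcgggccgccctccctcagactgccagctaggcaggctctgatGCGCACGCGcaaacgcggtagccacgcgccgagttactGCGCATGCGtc
Mrpl22: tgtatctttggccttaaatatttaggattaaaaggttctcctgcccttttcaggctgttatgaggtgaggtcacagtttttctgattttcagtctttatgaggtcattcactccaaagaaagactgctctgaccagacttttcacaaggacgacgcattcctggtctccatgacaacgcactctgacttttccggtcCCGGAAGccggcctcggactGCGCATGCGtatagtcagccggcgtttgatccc
In Mrpl17 the NRF1 matches begin 49 and 11 bases before the start and the ETS match 237 bases before it. In Mrpl22 the ETS match begins 53 bases and the NRF1 match 33 bases before the start. A match describes letters and shows neither binding nor control. The factors themselves were measured. Nrf1, added after the values were seen, averaged 1426 ± 293 normalized counts in Ndp KO and 1736 ± 496 in WT cells. Gabpa, a GABP subunit, averaged 1263 ± 198 in Ndp KO and 974 ± 367 in WT cells, and Yy1 641 ± 64.3 in Ndp KO and 855 ± 168 in WT cells (SD, n = 4 each). None passed the test (limma, unadjusted p = 0.261 for Nrf1, 0.135 for Gabpa and 0.0586 for Yy1, adjusted p = 0.946, 0.927 and 0.903).

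Members also shared their start regions with other genes more often than protein-coding genes in general. A protein-coding gene on the opposite strand started within 1000 bases for 33 of 78 members (42.3%), against 13.2% of 16971 protein-coding genes in the table. Among the 14685 of these that were tested, the share was 14.6%. Among these pairs, Mrps12 starts 172 bases from Sars2, the mitochondrial seryl-tRNA synthetase, and Mrpl43 starts 116 bases from Twnk, the helicase that unwinds mitochondrial DNA. Mrpl46 and Mrps11 are neighbours of this kind and both members, and Mrpl36 and Ndufs6, a complex I subunit, are another such pair. In the GENCODE M21 annotation 32 members had exons that overlap those of another gene of the table, 28 of them on the opposite strand. Reads of overlapping exons cannot be told apart in a library kit that does not mark the strand.

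All 78 members had counts in the sorted pools of both genotypes, which also held markers of cells other than hair cells. All 78 passed the minimum for testing, 10 normalized counts in at least 4 libraries. For comparison between genes, levels were divided by the length of the annotated principal transcript. The median member had 1370 normalized counts per kb over the 8 libraries, and the median of all protein-coding genes tested was 299. Large subunit members had a median of 1287 normalized counts per kb and small subunit members 1454. The middle 50% of each set lay between 734.5 and 2143 for the large and between 702.1 and 2528 for the small subunit, so that the subunits overlapped almost fully in level. Among the 10 small subunit members listed as special to mitochondria, a list that also holds Mrps18b, a relative of bacterial S18, the median was 577.8 per kb, while it was 1546 for the 16 members listed with a bacterial counterpart. In the large subunit, by place, these medians lay closer together. They were 1239 for 21 members special to mitochondria and 1428 for 30 with a bacterial counterpart. Divided by coding length instead, taken up after the values had been seen, the order of the large subunit medians was reversed. The order in the small subunit stayed, with a smaller gap.

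The most abundant member per kb was Mrpl33, the counterpart of bacterial L33, with 6903 normalized counts per kb. Its normalized counts were 3223, 3266, 3229 and 3128 in Ndp KO libraries 1 to 4 and 3466, 1912, 2468 and 5703 in WT libraries 1 to 4. The Ndp KO libraries lay within a narrow band, and the WT libraries lay on both sides of it. Mrpl42 of the large subunit, Mrps6, Mrps21 and Mrpl28 followed in this order, between 6451 and 5269 normalized counts per kb. At the low end stood Mrpl1, which forms the stalk that guides used tRNA out of the ribosome, with 196.5 per kb. Its normalized counts were 793, 672, 805 and 767 in Ndp KO libraries and 542, 610, 745 and 658 in WT libraries, so the genotypes overlapped. The next lowest were Mrpl47, Mrpl19, Mrpl23 and Mrps26, between 203.8 and 305.3 normalized counts per kb. Between Mrpl33 and Mrpl1 the level differed 35.1-fold. Of the 77 pairs of neighbours in this order, 72 overlapped among the Ndp KO libraries and 77 among the WT libraries. Mrps21 and Mrpl28, for example, had 5239 ± 146 and 5270 ± 470 per kb in Ndp KO cells, and 5377 ± 2756 and 5268 ± 1508 per kb in WT cells (SD, n = 4 each). Dividing by coding length, an alternative chosen after the values had been seen, kept Mrpl33 first but placed Mrpl17 at rank 5, against rank 57 by transcript length, and Mrpl23 last.

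**Figure D1:**
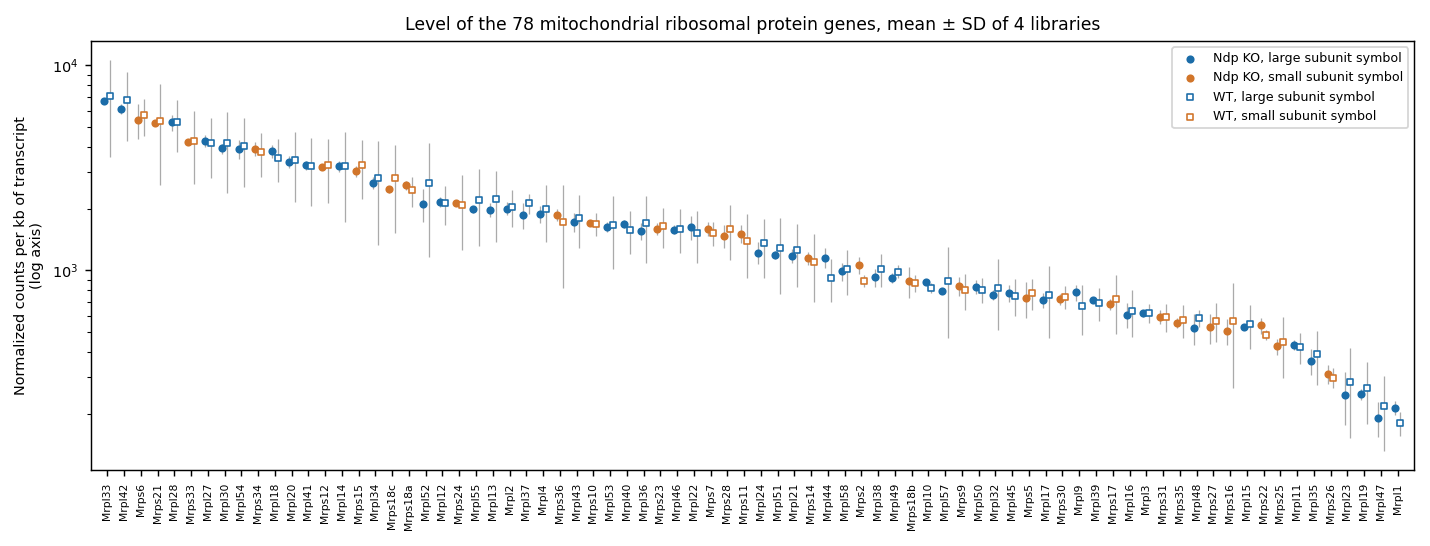
Level of each of the 78 members in normalized counts per kb of transcript (vertical log axis), ordered from Mrpl33 at 6903 to Mrpl1 at 196.5. Filled circles are means of 4 Ndp KO libraries and open squares means of 4 WT libraries, bars are SD, blue marks Mrpl and orange Mrps symbols, and the WT bars are longer than the Ndp KO bars for most members.

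The low rank of Mrpl23 went with a near-identical copy. Mrpl23, at the exit of the peptide tunnel, lies at chr7:142532686-142540747 on the plus strand in mm10, and the table also lists its processed pseudogene Mrpl23-ps1 at chr2:74591330-74591909 on the minus strand. The transcripts of both, in GENCODE M21, share a run of 540 identical bases that includes the whole 438-base coding region of Mrpl23. Their first 120 bases from the start codon, which is in capitals, are shown because they have 0 differences.
Mrpl23: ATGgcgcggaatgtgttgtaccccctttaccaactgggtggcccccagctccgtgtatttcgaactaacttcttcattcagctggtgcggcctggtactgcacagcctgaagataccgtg
Mrpl23-ps1: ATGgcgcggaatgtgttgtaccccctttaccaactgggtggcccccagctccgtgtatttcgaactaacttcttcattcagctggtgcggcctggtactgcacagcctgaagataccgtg
Mrpl23 itself was listed at 172, 239, 140 and 131 normalized counts in Ndp KO libraries and 181, 147, 129 and 331 in WT libraries. The pseudogene was listed at 2473, 2607, 2457 and 2257 in Ndp KO libraries and 2637, 1416, 1713 and 3860 in WT libraries. It thus held 91.6% to 94.6% of the pair's normalized counts in Ndp KO and 90.6% to 93.6% in WT libraries. No source used here says how the authors' counting divided reads between identical stretches, so the level of Mrpl23 alone is uncertain. The log2 difference of Mrpl23 was -0.15 alone and 0.11 after both genes' reads were added in each library, and neither passed the test. Of the other members, 13 also had a processed pseudogene at 95% identity or more over at least 80% of the coding region. The highest of those listed in the table, Mrpl48-ps, averaged 168 normalized counts, against 2374 for Mrpl48.

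**Figure D2:**
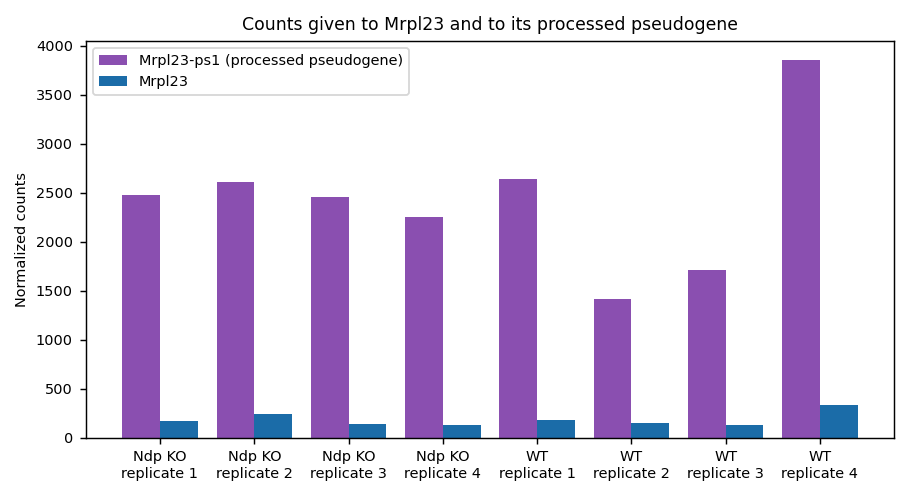
Normalized counts given to the processed pseudogene Mrpl23-ps1 (purple) and to Mrpl23 (blue) in each library, with the Ndp KO libraries on the left. The pseudogene stands at 1416 to 3860 and Mrpl23 at 129 to 331.

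Between the genotypes, the differences of the mitoribosomal protein genes were spread about 0, and no single member passed the test. Of 78 members, 0 passed at an adjusted p of 0.05 (limma with Benjamini-Hochberg adjustment), and of all 18203 genes tested 0.00549% did. At an unadjusted p of 0.05, limma passed 0 members and 5.57% of all genes. In 0 members did the genotypes fail to overlap, against 3.04% of all genes. The count tests on recovered reads gave 0 members at an adjusted p of 0.05 as well, with 0% of all genes by edgeR and 0.136% by DESeq2. At an unadjusted p of 0.05 edgeR passed 0 members and 4.55% of all genes, and DESeq2 passed 1 member and 6.09% of all genes. That member was Mrps2, at a log2 difference of 0.25 (DESeq2, unadjusted p = 0.0432, adjusted p = 0.808).

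The log2 differences, Ndp KO minus WT, were positive in 41 members and negative in 37, with a median of 0.01, against 0.016 over all genes tested. They ran from -0.19 for Mrpl37 to 0.35 for Mrpl44. The split between signs depended on the fit and on single libraries: 27 were positive and 51 negative by edgeR, 68 and 10 without WT replicate 4, and 17 and 61 without WT replicate 2. The 95% interval of the difference lay within a doubling or halving, ±1 on the log2 scale, for 78 of 78 members, and it did so for 67.6% of all protein-coding genes tested. It lay within 1.5-fold in either direction for 54 members (69.2%), against 34.7% of protein-coding genes. For the other 24 members a change of 1.5-fold could not be told from none in these libraries. The intervals rest on 1 variance for both genotypes, moderated over genes. The median SD of log2 values over members was 0.11 in Ndp KO and 0.42 in WT libraries, so the intervals may be too narrow.

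**Figure D3:**
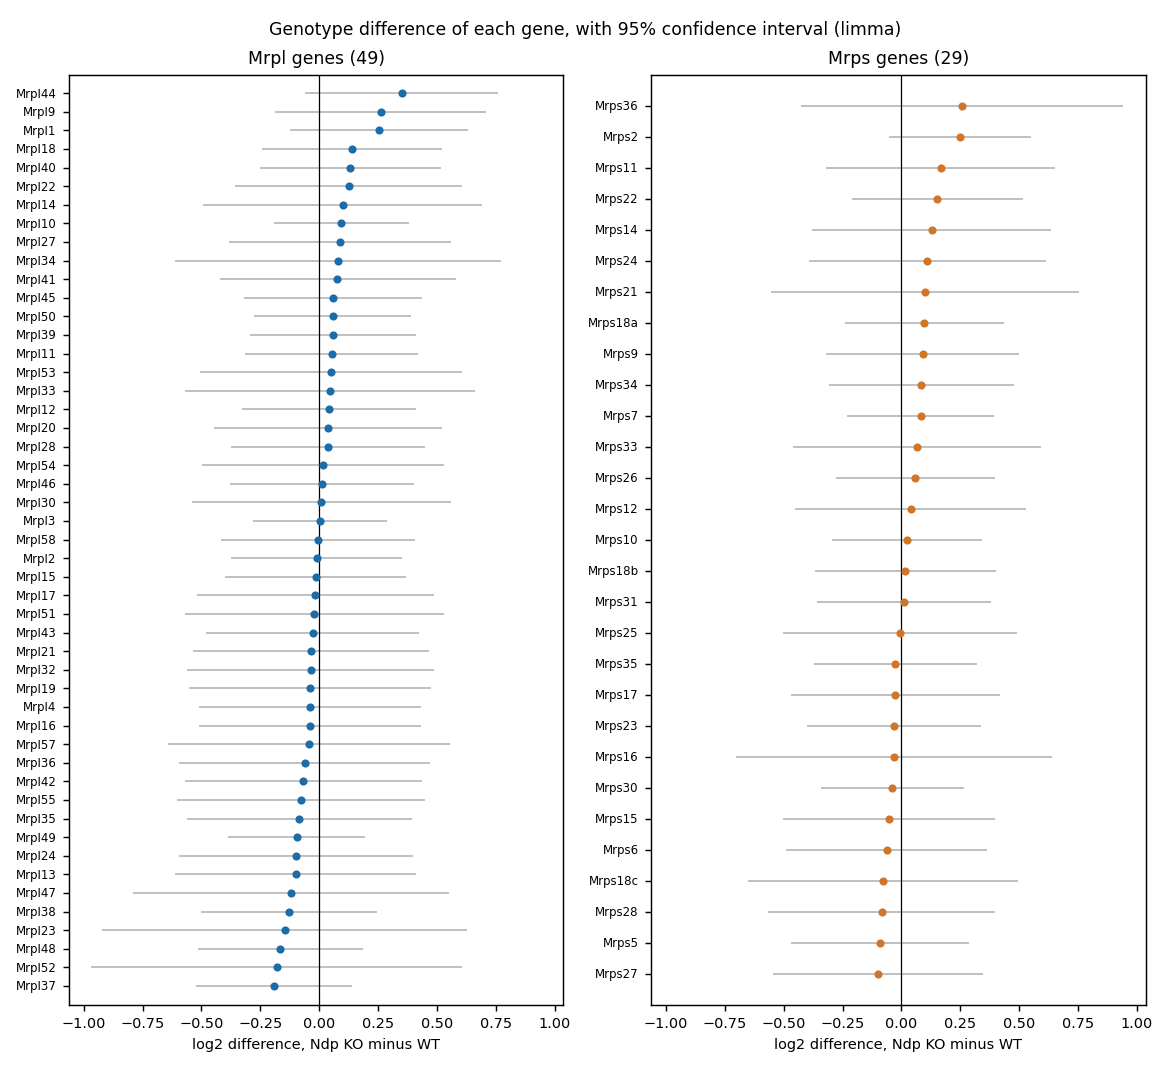
Log2 difference, Ndp KO minus WT, of each Mrpl gene (left) and Mrps gene (right), with the 95% confidence interval from limma. Values run from -0.19 for Mrpl37 to 0.35 for Mrpl44, and every interval crosses 0.

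In the large subunit, 24 members had positive and 25 negative differences, with a median of -0.005. The stalk proteins Mrpl10, Mrpl11 and Mrpl12, where translation factors dock, had log2 differences of 0.10, 0.05 and 0.04. Mrpl12 had 2722, 3058, 2740 and 2827 normalized counts in Ndp KO and 3265, 2443, 2136 and 3368 in WT libraries. The Ndp KO values fell between the highest and the lowest WT values. Mrpl3, which lies near the catalytic centre and is mutated in human cardiomyopathy, had nearly equal means, 2445 ± 85.4 in Ndp KO and 2447 ± 258 in WT cells (SD, n = 4 each). At the tunnel exit, Mrpl22 and Mrpl24 had differences of 0.13 and -0.10. Mrpl45, which ties the ribosome to the inner membrane, had 2004, 2066, 1798 and 1662 normalized counts in Ndp KO and 2345, 1462, 1640 and 1872 in WT libraries, with overlap in both directions. Mrpl58, which frees peptides from stalled ribosomes, averaged 2564 ± 269 in Ndp KO and 2622 ± 649 in WT cells (SD, n = 4 each).

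The largest difference of any member was that of Mrpl44, a large subunit protein with a ribonuclease III-like fold whose human variants cause cardiomyopathy. It had 1734, 1587, 1840 and 1406 normalized counts in Ndp KO libraries and 1742, 1297, 1046 and 1138 in WT libraries. WT replicate 1 lay among the Ndp KO libraries, and the other 3 WT libraries lay below all of them. The log2 difference was 0.35 ± 0.19 (SE) and did not pass the test (limma, unadjusted p = 0.0865, adjusted p = 0.916). Mrpl44 shares its start region with Wdfy1 on the opposite strand. Their starts lie 125 bases apart and their exons overlap by 126 bases, where reads cannot be told apart without a record of the strand. Wdfy1 averaged 2833 normalized counts over the 8 libraries and Mrpl44 1474. Mrpl9 and Mrpl1, with differences of 0.26 each, came next in the large subunit (limma, unadjusted p = 0.225 and 0.166). Mrpl37, Mrpl9 and the pairs of neighbours above are named outside the rule for named genes, after their values were seen.

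In the small subunit, 17 members had positive and 12 negative differences, with a median of 0.024. Mrps2, one of the deafness-associated genes, had 2309, 2391, 2230 and 1898 normalized counts in Ndp KO and 1829, 2005, 1699 and 1882 in WT libraries. Ndp KO replicates 1 to 3 lay above every WT library, and Ndp KO replicate 4 lay below WT replicate 2. Its log2 difference of 0.25 ± 0.14 (SE) did not pass (limma, unadjusted p = 0.0953, adjusted p = 0.917). Mrps7, the other deafness-associated gene, had 3431, 3265, 2885 and 2970 normalized counts in Ndp KO and 2986, 2474, 2992 and 3452 in WT libraries, and the genotypes overlapped. Mrps12, in the decoding centre, averaged 2824 ± 70.6 in Ndp KO and 2876 ± 999 in WT cells (SD, n = 4 each). Among 12 members whose human counterparts are known mitochondrial disease genes, 8 had positive and 4 negative differences, with a median of 0.062 and a range of -0.08 for Mrps28 to 0.35 for Mrpl44. Mrps14, Mrps16, Mrps22 and Mrps34 of that list had differences of 0.13, -0.03, 0.15 and 0.09.

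Symbols and places in the ribosome do not fully match. Mrps30 and Mrps18a carry small subunit symbols but sit in the large subunit, and Mrps36 is a component of the alpha-ketoglutarate dehydrogenase complex and no ribosomal protein. Mrps30 averaged 2395 ± 136 normalized counts in Ndp KO and 2471 ± 310 in WT cells (SD, n = 4 each), a log2 difference of -0.04. Bacterial S18 has 3 relatives here: Mrps18a had a difference of 0.10, Mrps18b of 0.02 and Mrps18c of -0.08. Mrps36 had 1367, 1387, 1250 and 1214 normalized counts in Ndp KO and 1305, 653, 802 and 2054 in WT libraries. Its Ndp KO libraries again lay close together inside the wide WT range, and its difference of 0.26 did not pass (limma, unadjusted p = 0.421). The difference was 0.013 without WT replicate 2 and 0.56 without WT replicate 4 (limma, unadjusted p = 0.0344, adjusted p = 0.887).

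The balance between the subunits, with members counted by symbol, was similar in both genotypes. Summed over members, large subunit genes had 106210 ± 4850 normalized counts in Ndp KO and 109574 ± 30984 in WT cells, and small subunit genes 65140 ± 3040 in Ndp KO and 65598 ± 15577 in WT cells (SD, n = 4 each). The ratio of large to small subunit sums was 1.609, 1.627, 1.649 and 1.637 in Ndp KO libraries and 1.714, 1.619, 1.560 and 1.738 in WT libraries. Of the WT libraries, 2 lay above and 1 below all Ndp KO libraries. The mean ratio was 1.631 ± 0.017 in Ndp KO and 1.658 ± 0.083 in WT cells (SD, n = 4 each), and the difference was smaller than the WT spread. Counted by place in the ribosome, without Mrps36, the ratio was 1.852, 1.87, 1.896 and 1.884 in Ndp KO libraries. In WT libraries it was then 1.972, 1.906, 1.774 and 1.955. WT replicates 1, 2 and 4 thus lay above all Ndp KO libraries and WT replicate 3 below them. The share of all reads that the family took was 0.411% to 0.459% in Ndp KO and 0.331% to 0.575% in WT libraries.

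What separated the libraries was their spread within WT. Each member's log2 value was set against its own mean over the 8 libraries, and the median deviation was -0.03, 0.11, -0.04 and 0.02 in Ndp KO libraries 1 to 4 and 0.17, -0.37, -0.30 and 0.46 in WT libraries 1 to 4. In WT replicate 2, 73 of 78 members lay below their own mean, and in WT replicate 3, 70 did. In WT replicate 4, 68 of 78 lay above it, and in WT replicate 1, 71 did. The SD of log2 values was smaller in Ndp KO than in WT for 72 of 78 members (92.3%) and for 72.3% of all protein-coding genes tested. It was also smaller for 81 of 81 nuclear respiratory chain genes, 13 of 13 mitochondrially encoded genes and 77 of 79 cytosolic ribosomal protein genes. Its median over members was 0.11 in Ndp KO and 0.42 in WT cells. The members are not independent of one another, since each library moves many of them at once, so no test was made of this count.

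The same libraries deviated in the same direction in related gene families. In WT replicate 4 the median deviation was 0.93 for 79 cytosolic ribosomal protein genes, 0.78 for 81 nuclear genes of the respiratory chain and 1.01 for 13 proteins encoded by mitochondrial DNA, the products that the mitoribosome makes. In WT replicate 2 it was -0.54, -0.71 and -0.62 for the same families in that order. Over all genes tested it was 0.02 in WT replicate 4 and 0.03 in WT replicate 2. The median of the mitoribosomal protein genes lay nearer to 0 than those of the other families in both libraries, a difference that was not tested. Large subunit members had a deviation of 0.50 in WT replicate 4 and -0.39 in WT replicate 2, and small subunit members 0.32 and -0.30.

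**Figure D4:**
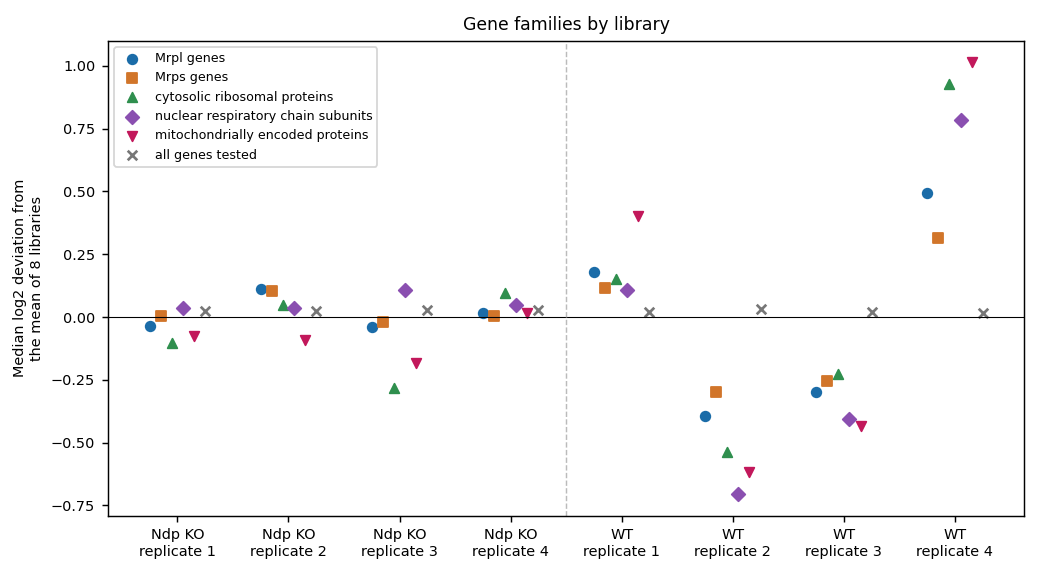
Median log2 deviation of 6 gene sets from their own mean over the 8 libraries, by library, with the Ndp KO libraries left of the dashed line. In WT replicate 4 the sets other than all genes stand between 0.32 and 1.01, in WT replicate 2 between -0.71 and -0.30, and all genes tested stand between 0.02 and 0.03 in both.

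The most variable members were Mrpl52, Mrpl34, Mrps36, Mrps16 and Mrps21, by the SD of log2 values within a genotype. Mrpl34, the counterpart of bacterial L34, had 1515, 1711, 1546 and 1737 normalized counts in Ndp KO and 1871, 875, 1168 and 2903 in WT libraries. Mrpl52 had 736, 1003, 753 and 1038 in Ndp KO and 1021, 483, 968 and 1992 in WT libraries. For both genes WT replicate 4 was the highest and WT replicate 2 the lowest of the 8 libraries.

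The deviation went with gene length. Members with a coding region under 450 bases (n = 24) had a median deviation of 0.68 in WT replicate 4 and -0.58 in WT replicate 2, and members with 900 to under 1500 coding bases (n = 15) had 0.03 and -0.14. The bins between them held values in between. Other protein-coding genes showed the same order: those under 450 coding bases (n = 1023) had 0.53 in WT replicate 4 and -0.40 in WT replicate 2, and those of 1500 or more (n = 6591) had -0.23 and 0.17. Across members, coding length and the SD of log2 values had a Spearman rho of -0.71 (n = 78 genes, which share the same 8 libraries), and across 14645 protein-coding genes 0.09. By transcript length the rho over members was -0.43, and the order was less regular, with 0.82 in WT replicate 4 for members under 750 bases (n = 12), 0.02 for 1500 to under 2500 bases (n = 10) and 0.55 for 2500 to under 4000 bases (n = 12). Coding length was taken up after the values had been seen. The part of gene length in the values of single members was not tested.

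**Figure D5:**
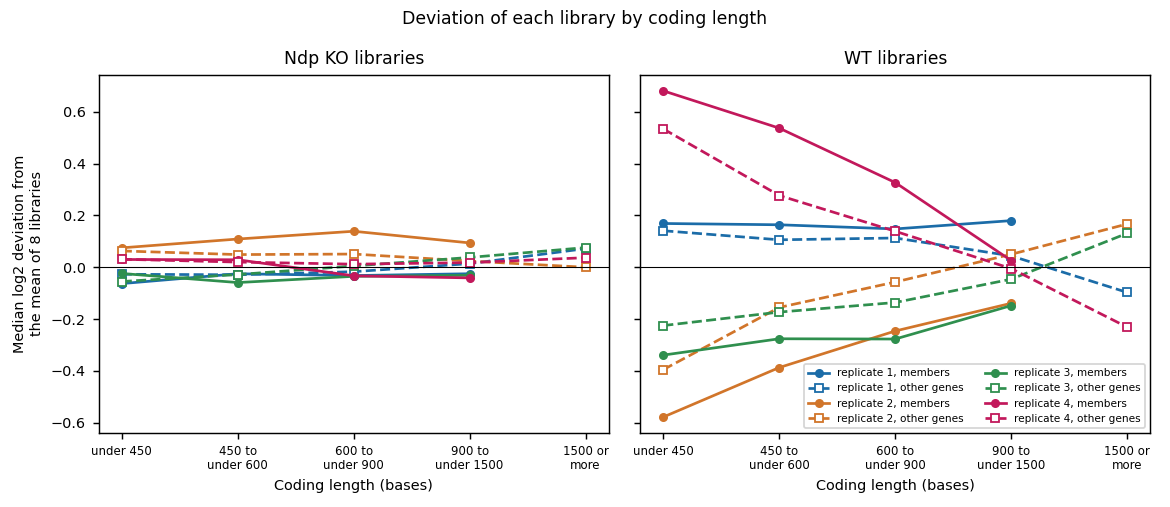
Median log2 deviation by coding length, for members (filled circles, solid lines) and other protein-coding genes (open squares, dashed lines), in Ndp KO libraries (left) and WT libraries (right). In WT replicate 4 the members fall from 0.68 under 450 bases to 0.03 at 900 to under 1500 bases, and no member is as long as 1500 bases.

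Because these WT libraries pull the members in opposite directions, the genotype difference depends on which of them is included. Over all 78 members the median log2 difference was 0.01 with all libraries, 0.15 without WT replicate 4 and -0.12 without WT replicate 2. Titles give a date, and only Ndp KO replicate 2 and WT replicate 2 share it, with median deviations of 0.11 and -0.37, too few libraries for a comparison within a date. Without both of them the median was -0.14. No member passed at an adjusted p of 0.05 in limma under any of these (smallest adjusted p 0.887 without WT replicate 4, 0.527 without WT replicate 2 and 0.553 without both libraries of that date).

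Proteins of the mitoribosome that carry other names were looked at beside the family. Their list of 6 genes also holds Oxa1l, an inner membrane insertase and no ribosomal protein, with a difference of -0.04. Of these 6 genes, 0 had an unadjusted limma p under 0.05, against 5.57% of all genes. In the list with Oxa1l, 4 differences were positive and 2 negative, with a median of 0.081. Dap3, a GTP-binding protein of the small subunit that was first described in cell death, had 5699, 5507, 5696 and 5354 normalized counts in Ndp KO and 5392, 5288, 4557 and 5853 in WT libraries. WT replicate 4 was the highest and WT replicate 3 the lowest, and the difference was 0.08. Aurkaip1, of the small subunit, and Gadd45gip1, of the large subunit, had differences of 0.16 and 0.08.

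Among 26 assembly factors, which modify ribosomal RNA and join the subunits, 15 differences were positive and 11 negative, with a median of 0.013. Against 5.57% of all genes, 1 of the 26 had an unadjusted limma p under 0.05. That gene was Nsun4, an RNA methyltransferase that takes part in subunit joining, with 441, 722, 878 and 764 normalized counts in Ndp KO and 1122, 989, 855 and 922 in WT libraries. Ndp KO replicate 3 lay above WT replicate 3, and the log2 difference of -0.51 ± 0.23 (SE) did not pass after adjustment (limma, unadjusted p = 0.0464, adjusted p = 0.895). Trub2, a pseudouridine synthase, and Mtg1, a GTPase of large subunit assembly, had differences of -0.39 and 0.24.

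Of 16 listed translation factors 14 were in the table by these symbols, and 0 had an unadjusted limma p under 0.05, against 5.57% of all genes. Their differences were positive in 8 and negative in 6, with a median of 0.053. Gfm1, an elongation factor that moves the ribosome along the messenger, averaged 2218 ± 216 in Ndp KO and 1871 ± 369 in WT cells (SD, n = 4 each). Lrpprc, which keeps mitochondrial messengers stable, averaged 7984 ± 489 in Ndp KO and 6839 ± 1554 in WT cells, and Mtfmt, which makes the initiator formyl-methionyl tRNA, 767 ± 78.5 in Ndp KO and 689 ± 87.4 in WT cells. None of these passed the test (limma, unadjusted p = 0.156, 0.169 and 0.386).

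Of the mitochondrial aminoacyl-tRNA synthetases and related enzymes, which charge the tRNAs, 19 are reported, 9 with positive and 10 with negative differences and a median of -0.002. An unadjusted limma p under 0.05 was found for 2 of the 19, and the genotypes did not overlap in 3, against 5.57% and 3.04% of all genes. The isoleucyl enzyme Iars2 had 3908, 4059, 4093 and 4196 in Ndp KO and 3087, 3815, 3541 and 2261 in WT libraries, without overlap (log2 difference 0.38 ± 0.17 SE, limma, unadjusted p = 0.0435, adjusted p = 0.895). The difference was 0.48 without WT replicate 2 and 0.23 without WT replicate 4 (limma, unadjusted p = 0.0156 and 0.0879). The glutamyl enzyme Ears2 was lower in every Ndp KO library, with 672, 645, 605 and 722 normalized counts, against 820, 869, 794 and 887 in WT libraries (-0.35 ± 0.15 SE, limma, unadjusted p = 0.0443, adjusted p = 0.895). The arginyl enzyme Rars2, the remaining gene without overlap, had 2519, 2321, 2469 and 2481 in Ndp KO and 2243, 2237, 2007 and 1859 in WT libraries (0.23 ± 0.13 SE, limma, unadjusted p = 0.0957, adjusted p = 0.917). It was named after its values were seen. Qrsl1, a subunit of the enzyme that forms glutaminyl-tRNA, had 538, 588, 603 and 488 in Ndp KO and 428, 375, 351 and 529 in WT libraries. WT replicate 4 lay above Ndp KO replicate 4, and the difference of 0.41 ± 0.20 (SE) did not pass (limma, unadjusted p = 0.064, adjusted p = 0.903). None of the 19 passed after adjustment (limma).

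The Perrault syndrome genes Hars2 and Lars2 did not pass either. Hars2 averaged 1925 ± 274 in Ndp KO and 1893 ± 257 in WT cells (SD, n = 4 each), a log2 difference of 0.02. Lars2 had far more reads than any other enzyme of the list, with 106410, 107070, 111840 and 118560 normalized counts in Ndp KO and 150630, 87741, 143960 and 254870 in WT libraries. WT replicate 4 was the highest and WT replicate 2 the lowest of the 8, the order seen in the gene families above, and the difference of -0.42 did not pass (limma, unadjusted p = 0.136, adjusted p = 0.927). It was -0.67 without WT replicate 2 (limma, unadjusted p = 0.00663, adjusted p = 0.466) and -0.16 without WT replicate 4 (limma, unadjusted p = 0.401, adjusted p = 0.946). Whether all reads listed for Lars2 come from its own transcripts was not tested. Of the 13 genes that copy or transcribe mitochondrial DNA or control its nuclear genes, 6 differences were positive and 7 negative. An unadjusted limma p under 0.05 was found for 0 of the 13, against 5.57% of all genes. The lowest p values there were those of Yy1, Polg2 (the accessory subunit of the mitochondrial DNA polymerase, log2 difference -0.45, limma, unadjusted p = 0.0702) and Gabpa.

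Related families had other medians, and each depended on WT replicates 2 and 4. The 81 tested nuclear respiratory chain genes had positive differences in 75 and negative in 6, with a median of 0.111, but the median was -0.091 without WT replicate 2, -0.013 without WT replicate 3 and -0.007 by edgeR. Without WT replicate 4 it was 0.373, with positive differences in 81 of 81. Of these genes 2 had an unadjusted limma p under 0.05, against 5.57% of all genes, both named after their values were seen: Cyc1, the cytochrome c1 of complex III, with 16479, 17449, 18682 and 16068 normalized counts in Ndp KO and 15705, 14454, 13632 and 13155 in WT libraries, and Ndufa4l2, which had at most 46.1 normalized counts in any library. Every Ndp KO library lay above every WT library for both (limma, unadjusted p = 0.0384 for Cyc1 and 0.0407 for Ndufa4l2, adjusted p = 0.895 each). That order held for 4 of the 81 genes, these 2 among them, against 3.04% of all genes without overlap in either direction. All 13 mitochondrially encoded genes had negative differences with all libraries, with a median of -0.169. The median was -0.411 without WT replicate 2, and without WT replicate 4 all 13 differences were positive, with a median of 0.142. Cytosolic ribosomal protein genes had negative differences in 73 of 79, with a median of -0.122. The median was -0.353 without WT replicate 2, and without WT replicate 4 the differences were positive in 72, with a median of 0.146. In both families 0 genes had an unadjusted limma p under 0.05 with all libraries, against 5.57% of all genes.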

How the data were processed

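RNA of Atoh1-GFP-sorted cochlear hair cells was sequenced in 4 Ndp KO and 4 WT libraries, per the labels' protocols, with SMART-Seq v4 cDNA and Nextera XT libraries, which keep no record of the strand. The build was mm10, and the tools listed were DESeq2 1.26.0, Salmon 0.14.2 and bcl2fastq 2.20, per the submitters' processing notes, which give no roles. Signal in the deposited table is the authors' normalized count of each gene. The values show that 1 divisor was used for each library. The authors' own log2 fold changes and p-values of a WT over KO comparison stand in the deposited table, per the file headers, and were not used as results.

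Whole reads were recovered from the smallest step of each column (100% of 202744 values within 1e-06 of a whole number). They may be counted reads or rounded estimates. The members and gene lists were chosen with earlier results of these data known. The design named edgeR for raw counts and limma otherwise, and since the values were normalized, limma 3.58.1 in R 4.3.3 was used, with an intensity trend, two-sided, on log2(normalized count + 1), with Benjamini-Hochberg adjustment over all 18203 genes that had at least 10 normalized counts in at least 4 libraries. The pseudocount understates changes of low genes. As no label names separate litters, the tests measure only how these libraries vary, in part perhaps technically. Floors cover counting error only, since the kit used no molecular identifiers and PCR copies are not separate molecules.

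Alternatives were edgeR 4.0.16 and DESeq2 1.42.0 on recovered reads, other pseudocounts (0.1 and 5), minimums (none and 50), scalings (TMM, CPM), sample quality weights, each library left out, and both libraries of a shared title date left out. The fits were tested on simulated data. Libraries were not paired, since their numbers only follow the accessions. Members were named if they were key members by role, had the 5 highest or lowest levels per kb or the 5 largest SDs, had an unadjusted p under 0.05 or did not overlap between genotypes. From each list of mitochondrial translation genes up to 3 were named by p, with Hars2, Lars2 and Ndp. Lengths, exon overlaps and transcripts are those of GENCODE M21 (mm10), found for 78 of 78 members, and promoter windows are from RefSeq (GRCm38.p6). Copies were searched with BLAST 2.17.0. Of the listed translation factors, Mtrfr and Mtres1 were not matched by symbol. A gene of the synthetase list is not reported here.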

Additional observations from a re-analysis of the deposited data

Results flagged for a closer look

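The processed pseudogene Mrpl23-ps1, which is no protein-coding gene and enters no count of members, had a mean of 2427 normalized counts over the 8 libraries, against 184 for Mrpl23. Whether these reads come from either locus cannot be told apart over the 540 bases that both transcripts share.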

How the results depend on the processing

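The count of members past an adjusted p of 0.05 was 0 under each of the 19 other settings. At an unadjusted p of 0.05 it was 1 by DESeq2 (Mrps2), and it ran from 0 to 2 when a single library was left out: Mrpl44 passed without WT replicate 1, Mrpl9 without WT replicate 2, and Mrps24 and Mrps36 without WT replicate 4. The median log2 difference stayed between -0.134 and 0.14 for large and between -0.044 and 0.163 for small subunit members when a library was left out, and counting subunits by place in the ribosome gave -0.005 and 0.021. The log2 difference of the large to small ratio, -0.022, ran from -0.051 without WT replicate 3 to 0.001 without WT replicate 4. Pseudocounts, minimums and TMM changed the sign of none of the named genes.

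Of 51 genes with a named log2 difference, 31 changed sign under at least 1 setting, none of them past the adjusted threshold in any of these. With CPM the log2 difference was -0.005 for Mrpl3. With sample quality weights it was -0.03 for Mrpl3, -0.035 for Mrpl45 and 0.016 for Mrps16. By edgeR it was -0.007 for Mrpl3, -0.033 for Mrps12, -0.084 for Mrpl33, -0.045 for Mrps21, -0.007 for Mrpl28 and -0.074 for Mrpl34. By DESeq2 it was -0.001 for Mrpl3, -0.026 for Mrps12, -0.077 for Mrpl33, -0.037 for Mrps21 and -0.067 for Mrpl34. With the reads of its pseudogene added it was 0.114 for Mrpl23. Without both libraries of the shared date it was -0.022 for Mrpl3, -0.107 for Mrpl11, -0.052 for Mrpl12, -0.066 for Mrpl22, -0.088 for Mrpl45, -0.023 for Mrps7, -0.122 for Mrps12, -0.049 for Mrps14, -0.015 for Mrps34, -0.049 for Mrps18b, -0.017 for Mrps36, -0.194 for Mrpl33, -0.173 for Mrps21, -0.105 for Mrpl28, -0.025 for Mrps26, -0.214 for Mrpl34 and -0.105 for Gadd45gip1. The cause was not tested.

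Leaving out 1 library at a time, the log2 difference ran from -0.049 to 0.071 for Mrpl3, -0.072 to 0.132 for Mrpl11, -0.08 to 0.139 for Mrpl12, -0.002 to 0.28 for Mrpl22, -0.322 to 0.137 for Mrpl23, -0.293 to 0.084 for Mrpl24, -0.042 to 0.185 for Mrpl45, -0.125 to 0.122 for Mrpl58, -0.003 to 0.157 for Mrps7 and -0.139 to 0.229 for Mrps12. It ran from -0.054 to 0.332 for Mrps14, -0.234 to 0.282 for Mrps16, -0.223 to 0.087 for Mrps28, -0.044 to 0.199 for Mrps34, -0.112 to 0.034 for Mrps30, -0.014 to 0.176 for Mrps18a, -0.061 to 0.104 for Mrps18b, -0.26 to 0.197 for Mrps18c, -0.186 to 0.339 for Mrpl33 and -0.238 to 0.14 for Mrpl42. It ran from -0.225 to 0.03 for Mrps6, -0.157 to 0.4 for Mrps21, -0.069 to 0.211 for Mrpl28, -0.397 to 0.05 for Mrpl47, -0.247 to 0.141 for Mrpl19, -0.006 to 0.113 for Mrps26, -0.523 to 0.158 for Mrpl52, -0.189 to 0.387 for Mrpl34, -0.042 to 0.099 for Hars2 and -0.043 to 0.179 for Gadd45gip1. In most of these the lowest value came without WT replicate 2 or 3 and the highest without WT replicate 4. With 4 libraries a genotype, a 1.5-fold change could not be told from none in 24 of 78 members.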
